A study of Mus musculus with 4 samples.

Results

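The 9 genes *Lhx2*, *Emx1*, *Emx2*, *Six3*, *Meis2*, *Isl1*, *Zic1*, *Tcf7l2* and *Lef1* encode transcription factors that lay out the forebrain in the embryo. They were taken by symbol from the 32285 genes counted in each section, and all 9 were found, once each. Fresh frozen brain of *Nf1*+/- mice, heterozygous for a mutation of the RAS regulator *Nf1*, had been cut at 10 µm, and 4 sections, numbered 1 to 4, had their RNA captured on Visium slides, where each barcoded spot takes up the polyadenylated RNA above it. Unique molecular identifiers (UMIs) count the captured transcripts. The labels give all 4 sections the genotype *Nf1*+/- and the tissue brain, with no treatment, age, sex or level of cut, and do not say whether they came from 4 mice. No wild-type section was used here, so the values describe regions and sections, not an effect of *Nf1*.

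During forebrain development, homeodomain, zinc finger and HMG-box factors are switched on in separate territories and give the cells of each territory their regional identity. *Lhx2*, *Emx1* and *Emx2* act in the dorsal telencephalon, the source of cortex and hippocampus, while *Six3*, *Meis2* and *Isl1* act in ventral telencephalic lineages, the source of striatum. *Zic1* acts in dorsal midline and medial forebrain tissue, and *Tcf7l2* and *Lef1* carry the Wnt signal to DNA, with *Tcf7l2* also known as a lasting mark of the thalamus. Many of these genes stay on in mature neurons of the same regions.

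*Emx1* and *Emx2* are paralogs whose levels followed different patterns here, so the sequences at the start of both genes are shown for comparison. *Emx1* (ENSMUSG00000033726) lies on chromosome 6 from 85187931 to 85204463 and *Emx2* (ENSMUSG00000043969) on chromosome 19 from 59458690 to 59465357, both in build GRCm38. The RefSeq windows run from 250 bases before to 50 bases after the start of each gene, on the plus strand, at chr6:85187681-85187980 and chr19:59458440-59458739. Capitals mark an exact match to TAATTA, the core that homeodomain proteins such as LHX2 and the EMX factors bind, or to CTTTGA, the core that TCF and LEF factors bind, on either strand.
Emx1: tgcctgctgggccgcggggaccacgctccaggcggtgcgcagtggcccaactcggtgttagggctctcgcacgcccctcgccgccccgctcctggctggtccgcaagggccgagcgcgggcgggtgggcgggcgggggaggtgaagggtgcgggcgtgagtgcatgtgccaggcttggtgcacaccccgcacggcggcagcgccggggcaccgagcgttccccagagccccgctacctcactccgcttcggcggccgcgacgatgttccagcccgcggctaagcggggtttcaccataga
Emx2: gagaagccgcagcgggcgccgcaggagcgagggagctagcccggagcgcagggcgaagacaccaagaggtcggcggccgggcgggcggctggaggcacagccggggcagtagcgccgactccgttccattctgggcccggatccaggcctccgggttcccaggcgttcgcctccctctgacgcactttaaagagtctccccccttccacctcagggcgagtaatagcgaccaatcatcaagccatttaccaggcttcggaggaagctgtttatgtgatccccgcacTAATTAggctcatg
The window of *Emx1* held 74% G and C bases and no match to either motif, and that of *Emx2* held 64.3% and 1 TAATTA, which began 36 bases after the start position. The median over 32851 mouse windows of the same length was 52.7%. TAATTA, which reads the same on both strands, stood in 5.29% of those windows and CTTTGA or its reverse complement TCAAAG in 16.0%. Among the 14 windows of the 9 genes, TAATTA stood in 1 (*Emx2*) and CTTTGA in 2 (*Lef1* and *Meis2*), and a match or its absence says nothing of binding.

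Spots with at least 500 UMIs were used, which were 1537, 2358, 2294 and 1431 spots in sections 1 to 4. The median spot held 14922, 15296.5, 8862.5 and 12232 UMIs, so section 3 was the shallowest. Sections shared 427 to 1989 spot barcodes in pairs, since every array carries the same set of positions. Spots were sorted into groups by 13 lists of regional and cell type markers that contain none of the 9 genes, so the UMIs of the members did not enter the choice of spots. A marker list had to exceed the UMIs that the spot's total predicts, by at least 3 standardised units and by a log2 ratio of at least 0.5. This put 5157 of the 7620 spots in a group and left 2463 in none. A spot is a small region that can hold several cells.

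Cortical-marker spots numbered 124, 476, 238 and 297 in sections 1 to 4 and were led by *Slc17a7*, the vesicular glutamate transporter of cortical neurons. Striatal-marker spots numbered 320, 641, 411 and 243 and were led by *Ppp1r1b*, a gene of striatal projection neurons. White matter-marker spots numbered 294, 275, 442 and 274 and were picked by a list of oligodendrocyte and myelin genes such as *Mobp* and *Cnp*. These 3 groups were present in every section, and the comparisons between them rest on all 4 sections.

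The lists written for thalamus, habenula and hypothalamus found spots with few or no UMIs of transcription factors that define their regions. Most of these factors also had few UMIs over the sections as a whole. The thalamic list picked 116 spots, and 56.3% of its excess UMIs came from *Prkcd*. The habenular list picked 92 spots, with 69.2% of the excess from *Tac2*, and the hypothalamic list picked 169, with 51.3% from *Baiap3*. The hippocampal list picked 70 spots led by *Cabp7* and *Spink8*, the cerebellar list 48 led by *Car8*, and the midbrain and hindbrain list none. These groups are therefore named by their leading genes, as *Prkcd*-led, *Tac2*-led, *Baiap3*-led, *Cabp7*-led and *Car8*-led spots.

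**Figure D1:**
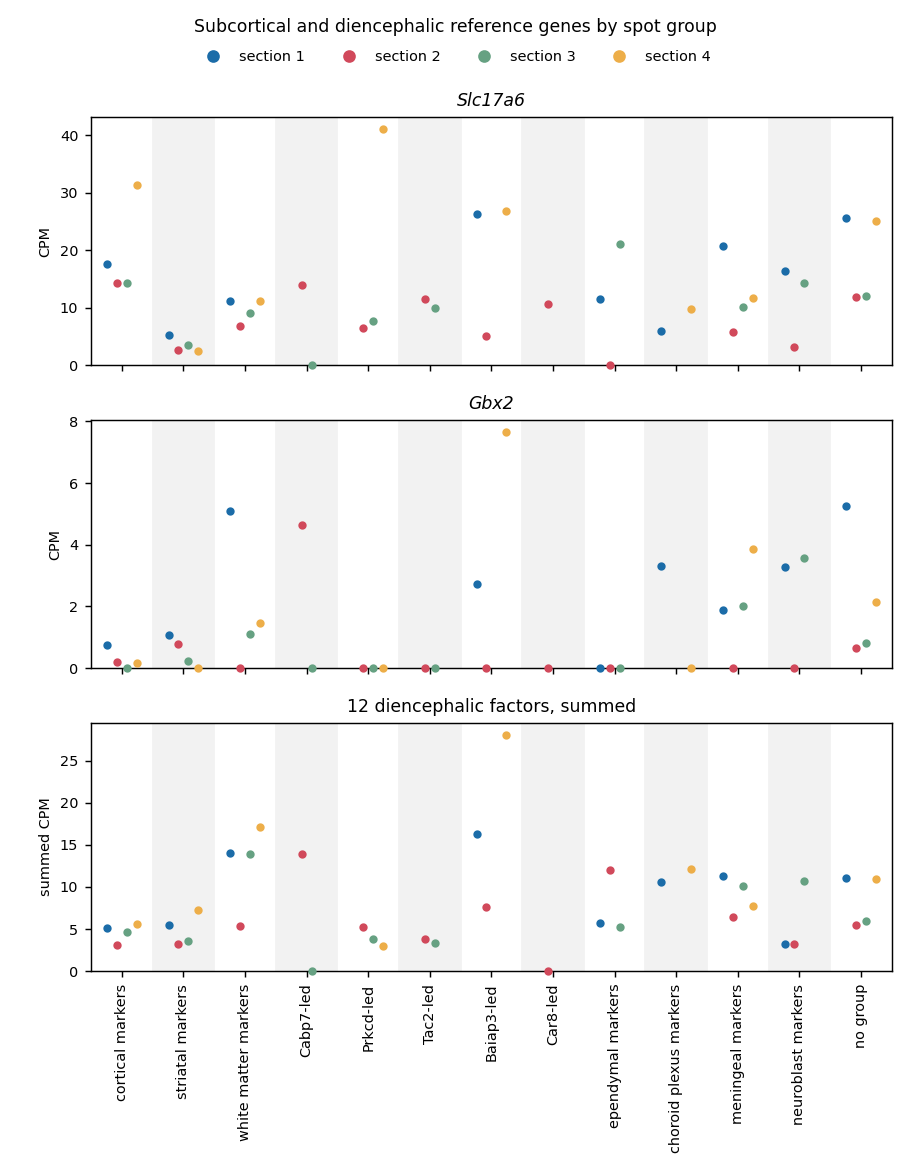
Each panel gives CPM (UMIs per 1000000 UMIs of the group) on the vertical axis for the spot groups on the horizontal axis, with 1 point per section of at least 20 spots. The bottom panel sums 12 diencephalic factors. *Gbx2* was at 0 CPM in the *Prkcd*- and *Tac2*-led sums and reached 7.66 CPM in *Baiap3*-led sums, its highest value of any group. Its highest value was 5.25 CPM in spots of no group and 0.736 CPM in cortical-marker spots.

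The thalamic factors *Gbx2* and *Shox2* and the habenular factor *Pou4f1* had 0 UMIs in the *Prkcd*-led and *Tac2*-led sums. The hypothalamic factors *Otp* and *Sim1* had 1 UMI each in the *Baiap3*-led sums, where *Gbx2* had 3, 0 and 6 UMIs in sections 1, 2 and 4. Over all spots used, *Gbx2* had 129 UMIs, but *Shox2*, *Pou4f1*, *Otp* and *Sim1* had only 2, 3, 5 and 2. With totals as low as those 4, 0 or 1 UMI in a group says little about its region. *Slc17a6*, the glutamate transporter of thalamus and other subcortical regions, was at 6.54 and 7.71 CPM in the *Prkcd*-led spots of sections 2 and 3 and at 41.1 CPM in those of section 4, which come from 20 spots. Cortical-marker spots held it at 14.2 to 31.3 CPM, so its level alone does not mark subcortical spots here. Of 12 listed diencephalic factors, 0 were abundant enough to be tested, and their summed level was 4.35 to 10.1 CPM over whole sections. In *Baiap3*-led spots it was 16.3, 7.63 and 28.1 CPM in sections 1, 2 and 4 from 18, 3 and 22 UMIs, against 3.12 to 5.58 CPM in cortical-marker, 2.94 to 5.24 CPM in *Prkcd*-led and 5.33 to 17.1 CPM in white matter-marker spots. Over whole sections 430 UMIs of the list came from *Nkx2-2*, also a gene of the oligodendrocyte lineage. With so few UMIs of these genes, the groups picked by diencephalic lists are not called diencephalic here, and the comparison between them and the telencephalic groups is one of marker lists. Cortical markers summed to 1805 to 2343 CPM in *Tac2*-led and 842 to 2015 CPM in *Prkcd*-led spots, against 2499 to 2669 CPM in cortical-marker spots. Striatal markers summed to 1176 to 1448 CPM in *Cabp7*-led spots, against 4251 to 5091 CPM in striatal-marker spots. Over whole sections, cortical markers summed to 916 to 1435 CPM and striatal markers to 1426 to 1882 CPM. The part of cortical or striatal tissue in the *Tac2*-, *Prkcd*- and *Cabp7*-led groups was not tested.

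**Figure D2:**
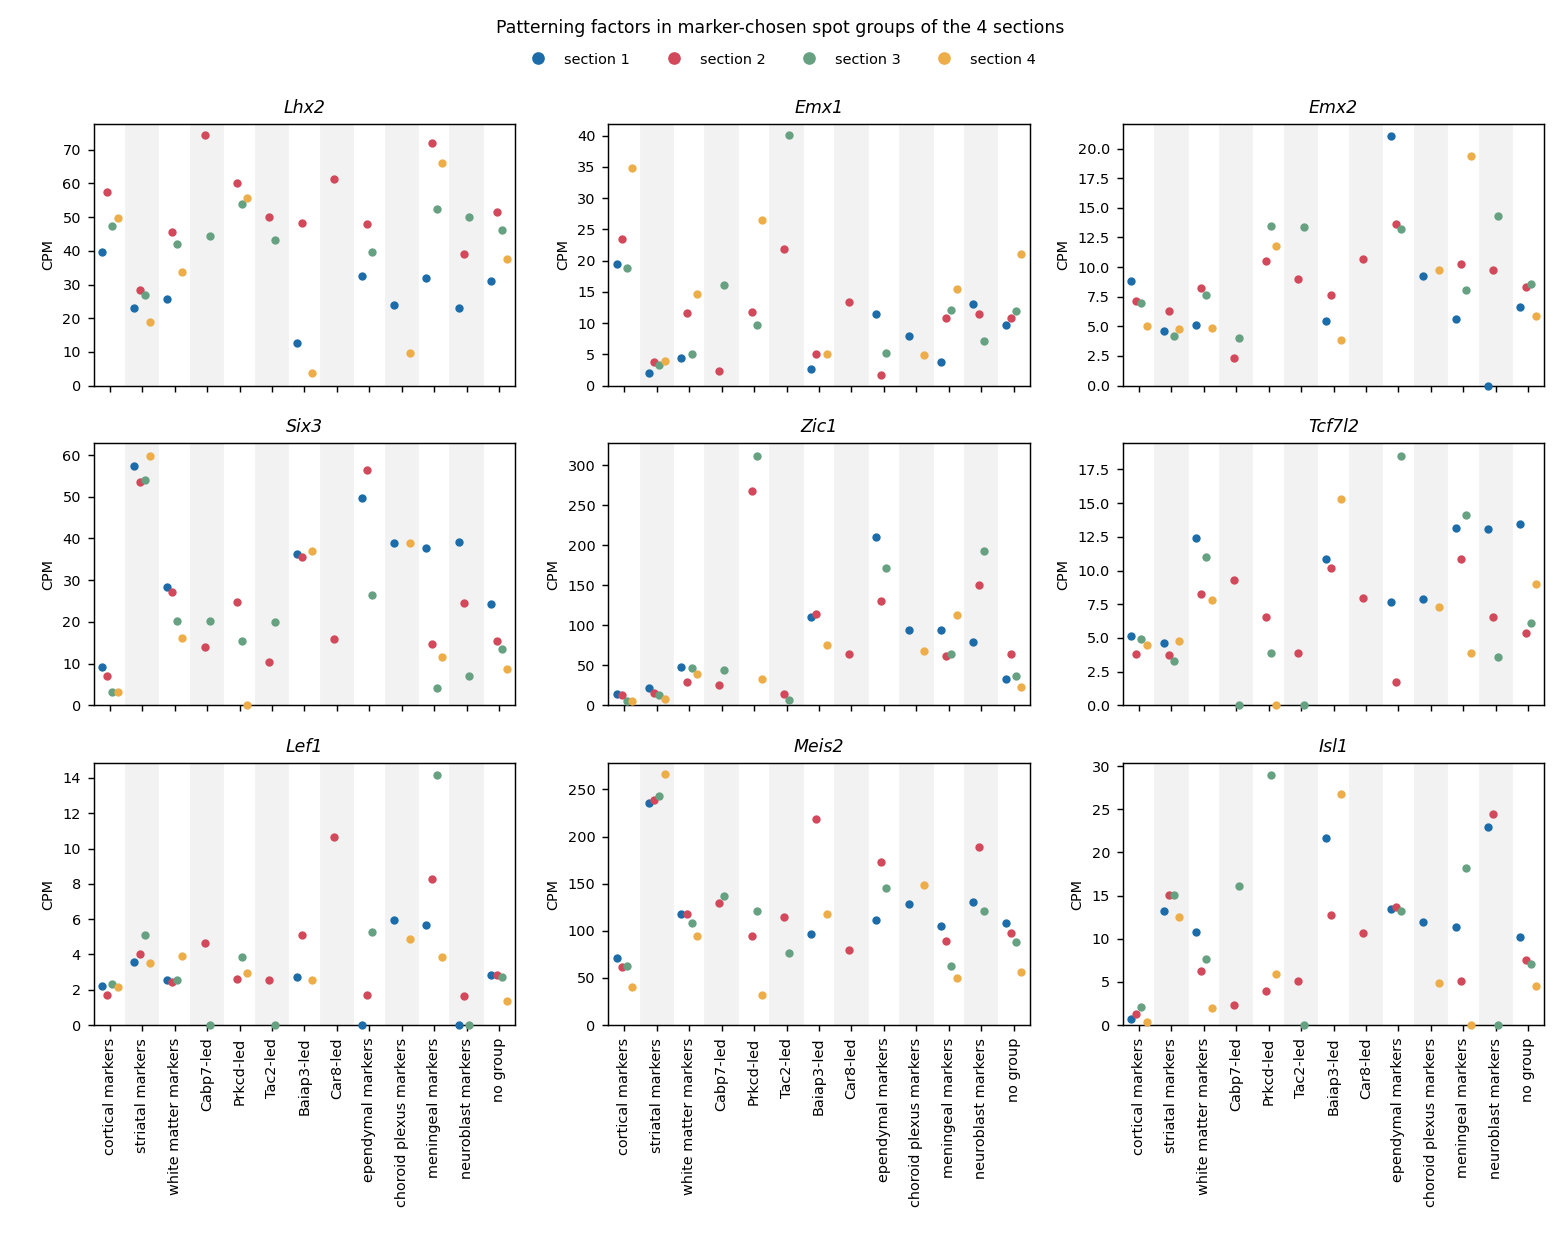
Each panel shows 1 patterning factor, with CPM on the vertical axis (from 0, a scale of its own per panel) and the spot groups on the horizontal axis. Points are sections with at least 20 spots of the group, and *Meis2* is highest in striatal-marker spots, *Six3* in striatal- and some ependymal-marker spots, *Emx1* in cortical-marker and *Tac2*-led spots, and *Zic1* in *Prkcd*-led and ependymal-marker spots.

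Striatal- against cortical-marker spots compared ventral with dorsal telencephalon. Of the 8 members abundant enough to be tested, *Six3*, *Meis2*, *Isl1* and *Zic1* were higher in striatal-marker spots and *Emx1* and *Lhx2* lower, while *Emx2* and *Tcf7l2* did not pass the test. These 6 of 8 stand against a background of 45.8% of 11313 genes called in either direction (24.1% higher, 21.7% lower), so a call alone is common here and the sizes carry the comparison. The share of all genes whose section values do not overlap between the groups was not counted. Where groups are said below not to overlap, this describes a member and is not set against other genes. Scaled to total UMIs without TMM, the median of all genes moved by -0.17 on the log2 scale and 27.9% in place of 52.7% of the called genes were higher in striatal-marker spots, while none of the listed genes called turned its direction. In sums over spots, fewer cells of a type and less RNA per cell cannot be told apart. The median log2 fold change was 0.36 over the 8 members and 0.04 over all genes tested.

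Among the dorsal factors, *Emx1*, a homeobox gene kept by excitatory neurons of the cortex, was at 19.5, 23.5, 18.9 and 34.9 CPM in the cortical-marker spots of sections 1 to 4 and at 1.96, 3.85, 3.32 and 3.99 CPM in the striatal-marker spots. The 2 groups did not overlap, and section 4 was the highest in cortical-marker spots. In the fit, *Emx1* was lower by a log2 fold change of -2.64 (SE 0.20, adjusted p = 1.44e-14, edgeR's quasi-likelihood test, p-values adjusted by Benjamini-Hochberg). Cortical-marker spots gave 39.9% of the *Emx1* UMIs of a section but 20.7% of all its UMIs, as means over the 4 sections.

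*Lhx2* (ENSMUSG00000000247, chromosome 2 from 38339271 to 38369737), a LIM-homeodomain gene that sets cortical identity, was at 39.7, 57.6, 47.4 and 49.6 CPM in cortical-marker and at 23.0, 28.3, 26.8 and 19.0 CPM in striatal-marker spots. The groups did not overlap, but the gap was smaller than for *Emx1*. *Lhx2* was lower by a log2 fold change of -0.84 (SE 0.13, adjusted p = 4.70e-07, edgeR's quasi-likelihood test).

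*Emx2*, the paralog of *Emx1* that acts in the caudal and medial cortex of the embryo, was at 8.83, 7.15, 6.98 and 5.04 CPM in cortical-marker and at 4.63, 6.26, 4.21 and 4.74 CPM in striatal-marker spots. The ranges overlapped, and the log2 fold change of -0.25 (SE 0.21) did not pass the test (adjusted p = 0.36, edgeR's quasi-likelihood test). In ependymal-marker spots it was at 21.1, 13.7 and 13.2 CPM in sections 1 to 3, from 11, 8 and 5 UMIs, and in the meningeal-marker spots of section 4 at 19.4 CPM from 5 UMIs. *Emx2os*, transcribed opposite *Emx2*, was counted at 1.97 to 2.86 CPM over whole sections. Such partners (also *Six3os1* and *Lef1os1*) were counted as genes of their own. The strand setting of the counting is not given in the sources used here, and whether their reads also entered the counts of the members was not tested.

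Among the ventral factors, *Six3* (ENSMUSG00000038805, chromosome 17 from 85613608 to 85626191), a homeobox gene of the anterior forebrain and eye, was at 57.5, 53.4, 54.0 and 59.8 CPM in striatal-marker and at 9.20, 7.05, 3.20 and 3.24 CPM in cortical-marker spots. The striatal values lay within a narrow band and the cortical values far below it. This gave a log2 fold change of 3.46 (SE 0.19, adjusted p = 6.70e-19, edgeR's quasi-likelihood test). Striatal-marker spots gave 53.1% of the *Six3* UMIs of a section but 23.3% of all its UMIs.

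*Meis2* (ENSMUSG00000027210, chromosome 2 from 115861264 to 116067537), a TALE homeodomain gene of striatal lineages, was at 236, 239, 243 and 266 CPM in striatal-marker and at 71.4, 62.0, 62.5 and 40.8 CPM in cortical-marker spots. The groups did not overlap, and section 4 held both the highest striatal and the lowest cortical level. The log2 fold change was 2.28 (SE 0.14, adjusted p = 3.73e-17, edgeR's quasi-likelihood test).

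*Isl1* (ENSMUSG00000042258, chromosome 13 from 116298270 to 116309688), a LIM-homeodomain gene of striatal and cholinergic neurons, was at 13.2, 15.0, 15.1 and 12.5 CPM in striatal-marker spots. In cortical-marker spots it was at 0.736, 1.31, 2.03 and 0.36 CPM, from 2, 13, 7 and 2 UMIs. Those low counts leave the cortical level imprecise, but the groups did not overlap. They gave a log2 fold change of 3.71 (SE 0.36, adjusted p = 1.01e-11, edgeR's quasi-likelihood test).

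*Zic1* (ENSMUSG00000032368, chromosome 9 from 91358058 to 91365768), a zinc finger gene, was at 21.7, 15.2, 13.1 and 8.23 CPM in striatal-marker and at 14.0, 13.1, 5.81 and 5.58 CPM in cortical-marker spots. It was higher in striatal-marker spots in each section, but the ranges overlapped between sections. The log2 fold change was 0.69 (SE 0.27, adjusted p = 0.0365, edgeR's quasi-likelihood test). The call did not last in 8 of 19 other settings, among them leaving out section 1 or section 3 (log2 fold changes of 0.57 and 0.63), and adjusted p-values ranged from 4.2e-05 to 0.221 over the 19.

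The Wnt effector *Tcf7l2* (ENSMUSG00000024985, chromosome 19 from 55741797 to 55933659) was at 4.63, 3.76, 3.32 and 4.74 CPM in striatal-marker and at 5.15, 3.83, 4.94 and 4.50 CPM in cortical-marker spots. The log2 fold change was 0.02 (SE 0.26, adjusted p = 0.958, edgeR's quasi-likelihood test). *Lef1* (ENSMUSG00000027985, chromosome 3 from 131110297 to 131224357), its relative, did not pass the filter on low counts and has no test in the fit as described. It was at 3.56, 4.04, 5.09 and 3.49 CPM in striatal-marker and at 2.21, 1.71, 2.33 and 2.16 CPM in cortical-marker spots, from 99 and 43 UMIs in all, and the groups did not overlap. With no filter on low counts the log2 fold change was 1.13 (SE 0.30, adjusted p = 0.000979, edgeR's quasi-likelihood test). *Lef1* is also active in brain endothelium, and 4 of 6 endothelial markers (*Flt1*, *Itm2a*, *Ly6c1* and *Slco1a4*) were higher in striatal-marker spots too, by 0.33 to 0.44 on the log2 scale. Their summed level was 147 to 241 CPM in cortical-marker and 208 to 252 CPM in striatal-marker spots, and their part in the *Lef1* difference was not tested.

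**Figure D3:**
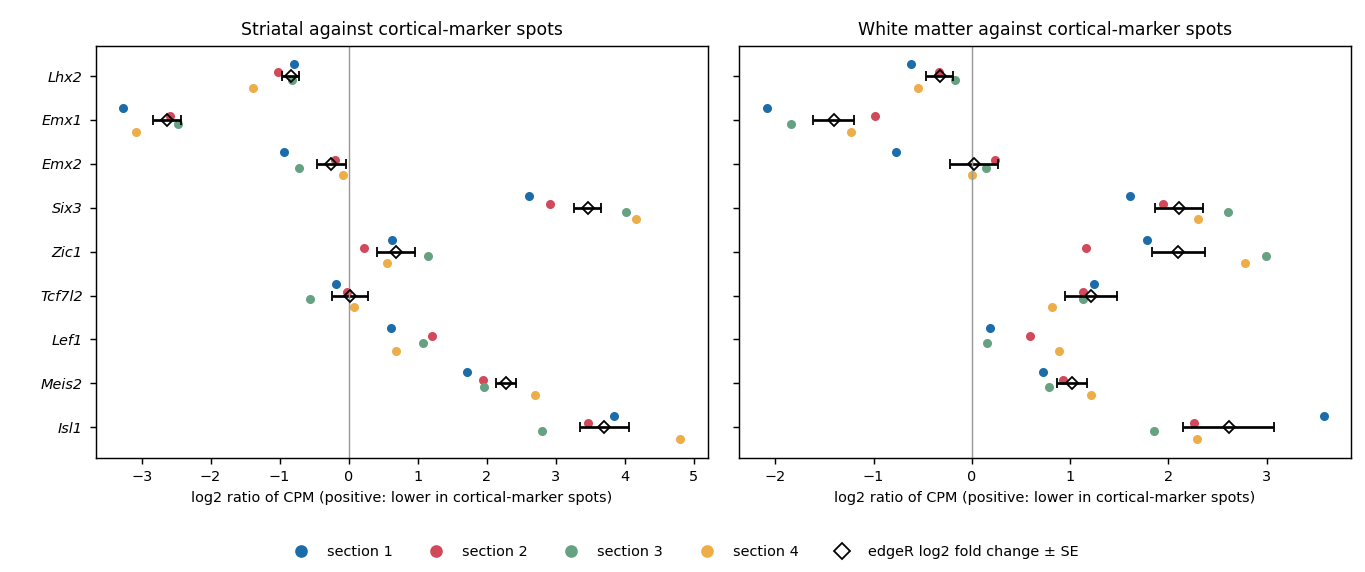
Each row is 1 patterning factor and the horizontal axis is the log2 ratio of its CPM between 2 spot groups, with 0.5 UMIs added to each count. Dots are the 4 sections and open diamonds the edgeR log2 fold change with its SE (none for *Lef1*). The dots of *Six3*, *Meis2*, *Isl1*, *Zic1* and *Lef1* lie above 0 and those of *Emx1* and *Lhx2* below 0 in all 4 sections of both panels.

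Other patterning genes were set beside the members in the same comparison, in which 24.1% of all genes were called higher and 21.7% lower. Of 10 pallial factors 6 were tested, of which *Tbr1*, *Fezf2*, *Nr2f1*, *Nr2f2* and *Lmo4* were lower in striatal-marker spots and *Bcl11b*, which also marks striatal projection neurons, was higher, with a median log2 fold change of -1.81. Of 12 subpallial factors 9 were tested, of which *Dlx5*, *Dlx6*, *Foxp1*, *Foxp2*, *Lhx8* and *Sp9* were higher and *Dlx1*, also a gene of cortical interneurons, was lower, with a median of 2.15. Of 21 relatives of the members 9 were tested, and *Meis1*, *Pbx3* and *Lhx8* were higher, by 2.55, 2.48 and 2.70 on the log2 scale, while the other 6 did not pass. MEIS proteins bind DNA together with PBX partners.

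In white matter- against cortical-marker spots, *Zic1*, *Isl1*, *Six3*, *Tcf7l2* and *Meis2* were higher and *Emx1* lower, which is 6 of the 8 tested against a background of 39.4% of genes called (20.6% higher, 18.7% lower). Without TMM, 39.5% in place of 52.6% of the called genes were higher. *Zic1* was at 48.5, 29.1, 47.2 and 38.6 CPM in white matter-marker spots, all above the highest cortical value, with a log2 fold change of 2.10 (SE 0.27, adjusted p = 2.00e-08, edgeR's quasi-likelihood test). *Tcf7l2* was at 12.4, 8.24, 11.0 and 7.82 CPM, again above every cortical value, with a log2 fold change of 1.21 (SE 0.27, adjusted p = 0.000255, edgeR's quasi-likelihood test). *Tcf7l2* is known as a gene of newly formed oligodendrocytes as well as of the thalamus.

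Within each section, the ventral factors were intermediate in white matter-marker spots. *Six3* was at 28.4, 27.1, 20.1 and 16.1 CPM, above every cortical and below every striatal value, with a log2 fold change against cortical-marker spots of 2.11 (SE 0.25). *Meis2* was at 118, 118, 108 and 94.8 CPM and *Isl1* at 10.8, 6.30, 7.68 and 1.95 CPM, with log2 fold changes of 1.02 (SE 0.15) and 2.61 (SE 0.46). The *Isl1* values came from 34, 13, 21 and 4 UMIs. That of section 4 lay below the cortical value of section 3 (2.03 CPM). *Emx1* was at 4.46, 11.6, 5.12 and 14.7 CPM and was lower by a log2 fold change of -1.41 (SE 0.21). All 4 had adjusted p-values of 1.21e-05 or less by edgeR's quasi-likelihood test. *Lhx2* (log2 fold change -0.33, SE 0.14, adjusted p = 0.0541, edgeR's quasi-likelihood test) and *Emx2* (0.02, SE 0.25) did not pass. The 8 striatal markers summed to 879 to 1657 CPM in white matter-marker spots against 319 to 608 CPM in cortical-marker spots. Over whole sections they summed to 1426 to 1882 CPM, and the part of striatal tissue in white matter-marker spots was not tested.

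The groups picked by diencephalic and telencephalic lists were compared next, and the count of members called depended on how the groups were formed. Averaged over the *Prkcd*-, *Tac2*- and *Baiap3*-led groups against the cortical-, striatal-marker and *Cabp7*-led groups, *Zic1* was higher and the 7 other tested members did not pass, which is 1 of 8 against a background of 6.54% of genes called (2.86% higher, 3.68% lower). Without TMM, 62.1% in place of 44.1% of the called genes were higher. With sums of at least 50 spots 6 members were called, at a standardised excess of at least 5 it was 5, and with spots that were candidates for 1 list it was 3, while 2493, 1890 and 2072 genes in all were called. Sums of at least 50 spots left *Baiap3*-led spots of sections 1 and 4 against cortical- and striatal-marker spots, so that fit compared other groups. Without section 2 or section 3, 1532 and 1511 genes were called. Leaving out either also removed the *Tac2*- and *Cabp7*-led groups, which had sums in sections 2 and 3 only and needed 2 sections. The log2 fold change of *Zic1* was 1.89 (SE 0.44, adjusted p = 0.00402, edgeR's quasi-likelihood test). It was 3.57 without section 2 and 3.33 without section 3, in both cases without the *Tac2*- and *Cabp7*-led groups. With edgeR's robust fit *Zic1* was no longer called (adjusted p = 0.0587, the highest over 21 other settings, with the lowest at 2.26e-18). *Tcf7l2*, the thalamic mark among the members, had a log2 fold change of 0.10 (SE 0.48). It was 1.32 and called with sums of at least 50 spots, where *Baiap3*-led spots alone stood for the diencephalic lists (adjusted p = 0.00748, edgeR's quasi-likelihood test). Without section 3, and so without the *Tac2*- and *Cabp7*-led groups, it was 0.71. Over 19 other settings it lay between 0.052 and 1.32, and no other setting called it.

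*Zic1* differed widely within these groups. It was at 268 and 312 CPM in the *Prkcd*-led spots of sections 2 and 3, the highest values of any sum, and at 32.3 CPM in those of section 4. In *Tac2*-led spots it was at 14.1 and 6.67 CPM in sections 2 and 3, and in *Baiap3*-led spots at 110, 114 and 75.3 CPM in sections 1, 2 and 4. The *Prkcd*-led spots of section 4 were also the highest of the 3 sections in *Slc17a6* and in *Emx1* (26.4 CPM, against 11.8 and 9.64 CPM in sections 2 and 3). *Six3* and *Tcf7l2* had 0 UMIs in the *Prkcd*-led spots of section 4, which allows levels of up to 8.81 CPM.

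Levels of several members in *Baiap3*-led spots overlapped those of other groups. They held *Isl1* at 21.7, 12.7 and 26.8 CPM in sections 1, 2 and 4, from 24, 5 and 21 UMIs. *Six3* was at 36.2, 35.6 and 37.0 CPM there and *Tcf7l2* at 10.9, 10.2 and 15.3 CPM, the last from 12, 4 and 12 UMIs. *Lhx2* was at 12.7 and 3.83 CPM in sections 1 and 4, from 14 and 3 UMIs, and at 48.3 CPM in section 2, from 19 UMIs. The values of sections 1 and 4 were its lowest beside the choroid plexus-marker spots of section 4. The spots of sections 1 and 4 also carried more *Slc17a6* (26.2 and 26.8 CPM) than those of section 2 (5.08 CPM), against 14.2 to 31.3 CPM in cortical-marker spots. Against the telencephalic groups, *Zic1* and *Isl1* were higher by 2.55 and 2.14 and *Lhx2* lower by a log2 fold change of -1.26, which is 3 of 8 members against 15.3% of genes called, in a comparison chosen after the data were seen. Against *Prkcd*-led spots, *Lhx2* (log2 fold change -1.60, SE 0.34, adjusted p = 0.00232, edgeR's quasi-likelihood test) and *Zic1* (-1.19, SE 0.30, adjusted p = 0.0115) were lower in the fit, which is 2 of 8 against 5.28% called (2.19% higher, 3.08% lower). Only sections 2 and 4 held sums of both groups. There, *Lhx2* was lower in both (48.3 against 60.2 and 3.83 against 55.8 CPM). These values rest on few UMIs, 19 against 46 in section 2 and 3 against 19 in section 4. *Zic1* was lower in section 2 (114 against 268 CPM) but higher in section 4 (75.3 against 32.3 CPM). The call of *Lhx2* was lost in 2 of 17 other settings, without section 4 and after thinning, and that of *Zic1* in 8 of 17, among them without section 1, 2 or 3, after thinning and with DESeq2. Without 1 section, 177 to 495 genes were called in place of 597.

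*Cabp7*-led spots, the group of the hippocampal list, reached 20 spots in sections 2 and 3 only. No member was called against cortical-marker spots by edgeR's quasi-likelihood test, against 0.0884% of all genes (0.0619% higher, 0.0265% lower). At an unadjusted p-value under 0.05, 5 of 8 members passed, as did 8.57% of all genes, and DESeq2 called 0. *Meis2* was at 130 and 137 CPM and *Lhx2* at 74.3 and 44.5 CPM in these spots. *Emx2*, a hippocampal gene of the embryo, had 1 UMI in each sum.

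Outside the neuronal groups, *Zic1* stood at 211, 130 and 172 CPM in the ependymal-marker spots of sections 1 to 3, and at 78.5, 150 and 193 CPM in the neuroblast-marker spots of the same sections. It was at 94.4 and 68.0 CPM in the choroid plexus-marker spots of sections 1 and 4 and between 61.9 and 112 CPM in meningeal-marker spots. *Zic1* is known as a gene of the meninges. Neuroblast markers summed to 55.5, 176 and 146 CPM in the ependymal-marker spots of sections 1 to 3. *Lef1* was at 5.65, 8.30, 14.1 and 3.88 CPM in meningeal-marker spots, where the endothelial markers summed to 415 to 606 CPM, and 1 UMI underlies its value in section 4. *Six3* was at 49.8, 56.4 and 26.5 CPM in ependymal-marker spots of sections 1 to 3, against 57.5, 53.4 and 54.0 CPM in the striatal-marker spots of those sections.

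The members were also read spot by spot, after spots were thinned to 5000 UMIs so that depth was equal, which left out 72, 143, 427 and 207 shallower spots of sections 1 to 4. The area under the receiver operating characteristic curve is the chance that a spot of 1 group has a higher value than a spot of another. A tie counts as 0.5, and 0.5 in all means no separation. Ties are common for scarce members, since most spots hold none of their UMIs. A logistic score of all 9 members, fitted on the other 3 sections, told striatal- from cortical-marker spots with areas of 0.784 to 0.862 over the 4 sections, and unthinned with 0.875 to 0.961. *Meis2* alone reached 0.697 to 0.764 and *Six3* 0.585 to 0.62, while *Isl1*, with few UMIs per spot, stayed between 0.523 and 0.531. For the groups of the diencephalic against the telencephalic lists, the score reached 0.656 to 0.733, with *Zic1* at 0.587 to 0.682 and *Tcf7l2* at 0.501 to 0.516. These areas are descriptions within each section, and no test was made of them.

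**Figure D4:**
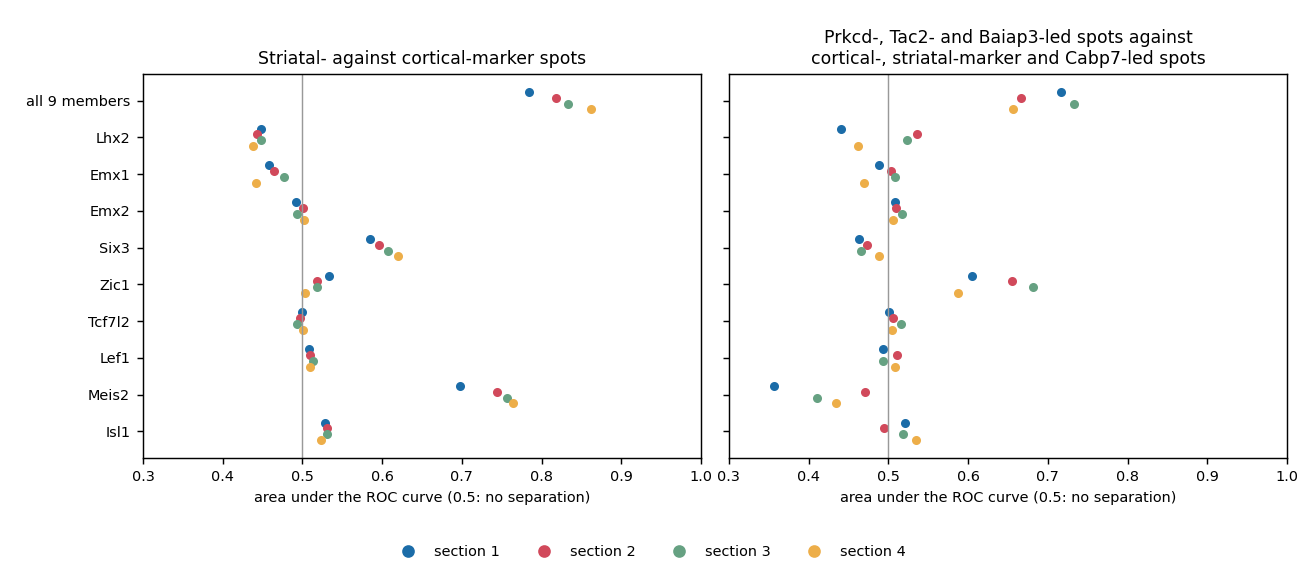
The horizontal axis is the area under the receiver operating characteristic curve in spots thinned to 5000 UMIs and each dot is 1 section, for a score of all 9 members and for each member alone. Areas for the score lie between 0.784 and 0.862 in the left panel and between 0.656 and 0.733 in the right panel.

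Across the 34 section-by-group sums, the members were correlated in pairs on the log2(CPM + 1) scale. The sums of 1 section share a library and the groups differ in depth, so the Pearson correlations are given as a description. *Six3* and *Meis2* correlated at 0.83, the highest of all pairs, and *Meis2* and *Isl1* at 0.56, while *Emx1* with *Meis2* was at -0.71 and *Emx1* with its paralog *Emx2* at 0.19. *Meis2* was most like *Drd2*, *Sez6* and *Penk* (0.92, 0.91 and 0.90), of which *Drd2*, a dopamine receptor gene, was a striatal marker of the grouping and *Penk* is a striatal neuropeptide gene. *Zic1* was most like *Prkcd* (0.92, a marker of the grouping), *Zic4* (0.91), the gene next to it in the same family, and *Lbhd2* (0.91). *Lef1* was most like *Klf4*, *Itpripl2* and *Pecam1* (0.72, 0.68 and 0.67), the last an endothelial marker.

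*Isl1* was most like *Ass1*, *Gad2* and *Sv2c* (0.80, 0.78 and 0.76), where *Gad2* makes the transmitter GABA. *Emx1* was most like *Kcnh7*, *Kcnj3* and *Trbc2* (0.81, 0.80 and 0.80) and *Lhx2* like *Mgll*, *Nsmf* and *Purb* (0.80, 0.79 and 0.76). The third gene beside *Six3* was *Plppr1* (0.80), after *Meis2* and *Drd2* (0.81). The scarcer *Emx2* (*1700037C18Rik*, *Cep89* and *Slc5a3*, 0.71 to 0.72) and *Tcf7l2* (*Nup43*, *Pgf* and *Dock6*, 0.72 to 0.77) had weaker neighbours.

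For the level of cut, each section counts as 1 sample, so the levels over whole sections are described with exact 95% Poisson intervals that cover counting error only. *Emx1* was at 7.67 (6.59 to 8.87), 12.3 (11.2 to 13.5), 10.6 (9.31 to 12.1) and 19.7 (17.8 to 21.8) CPM in sections 1 to 4, a mean of 12.6 ± 5.14 (SD, n = 4 sections). Section 4 stood highest and section 1 lowest, and the intervals of sections 2 and 3 overlapped. Set to the mean make-up of spot groups, the highest level over the lowest fell from 2.57 to 2.02 times. *Lhx2* was at 28.2, 47.4, 42.1 and 35.3 CPM (38.2 ± 8.35), lowest in section 1 and highest in section 2, and the 4 intervals were apart from each other. *Emx2* was at 6.65, 7.62, 7.59 and 5.71 CPM (6.89 ± 0.907), and its 4 intervals all overlapped.

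**Figure D5:**
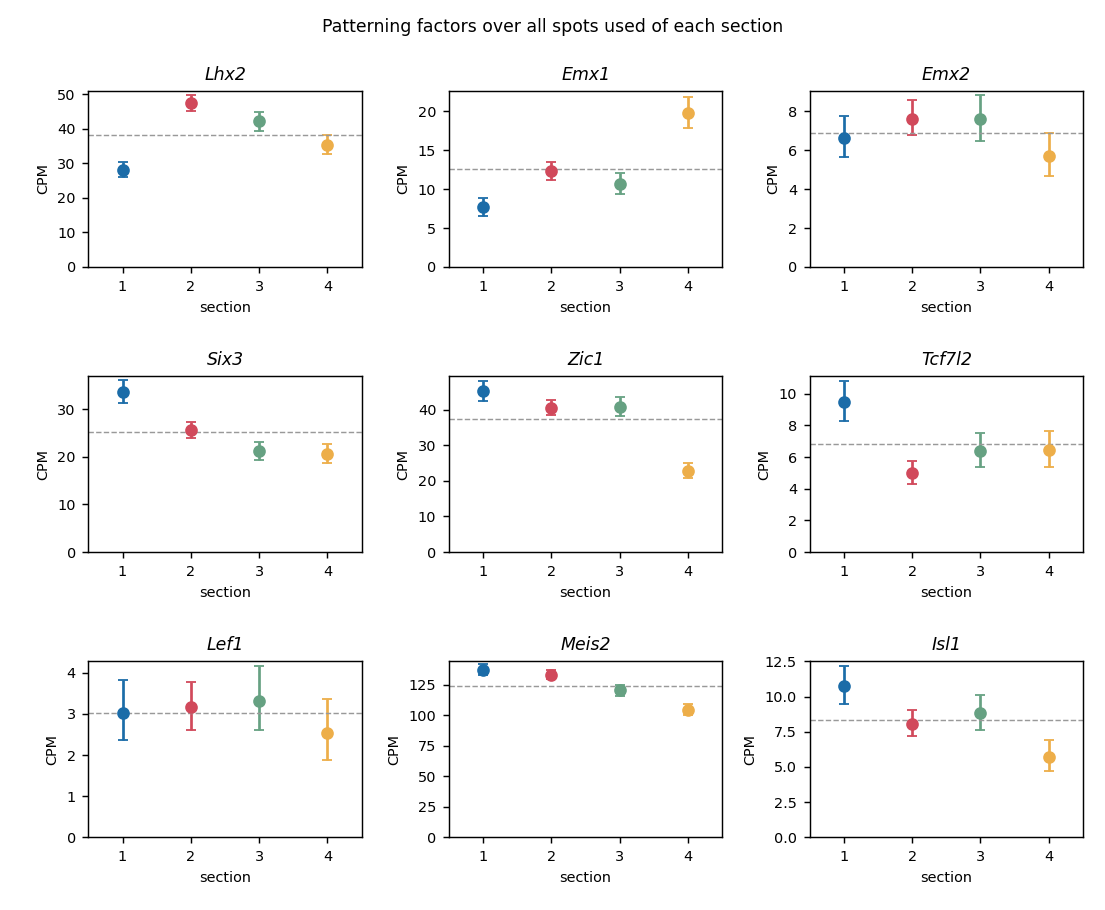
Each panel shows 1 patterning factor over all spots used, with CPM on the vertical axis from 0 and the section on the horizontal axis. Points are the sections, bars exact 95% Poisson intervals and the dashed line the mean of the 4 sections, and *Emx1* is highest in section 4, where *Zic1*, *Meis2* and *Isl1* are lowest.

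The ventral factors ran the other way. *Six3* was at 33.6, 25.5, 21.2 and 20.6 CPM (25.2 ± 6.01, SD, n = 4 sections), *Meis2* at 137, 133, 120 and 104 CPM (124 ± 14.7) and *Isl1* at 10.7, 8.08, 8.81 and 5.71 CPM (8.34 ± 2.08). All 3 were highest in section 1 and lowest in section 4. The intervals of *Meis2* and *Isl1* in section 4 lay below those of the other 3 sections, while those of *Six3* in sections 3 and 4, of *Meis2* in sections 1 and 2 and of *Isl1* in sections 1 and 3 overlapped. Set to the mean make-up, the highest over the lowest fell from 1.63 to 1.44 for *Six3* (with section 3 now lowest, at 21.7 CPM against 22.7 CPM in section 4), from 1.31 to 1.19 for *Meis2* and from 1.88 to 1.50 for *Isl1*. *Zic1* was at 45.2, 40.5, 40.8 and 22.7 CPM (37.3 ± 9.95), with section 4 below the other 3, whose intervals overlapped, and its ratio fell from 1.99 to 1.79, with section 2 now highest. Section 4 was also the lowest of the 4 for *Zic1* within cortical- and within striatal-marker spots.

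*Tcf7l2* was at 9.46 (8.25 to 10.8), 4.97 (4.28 to 5.75), 6.36 (5.35 to 7.50) and 6.44 (5.35 to 7.68) CPM, a mean of 6.81 ± 1.89 (SD, n = 4 sections). Section 1 stood apart from the other 3, whose intervals overlapped. There, *Tcf7l2* was highest in white matter-marker spots (12.4 CPM), in meningeal- and neuroblast-marker spots (13.2 and 13.1 CPM, from 7 and 4 UMIs) and in spots of no group (13.5 CPM), and *Gbx2* had 75 UMIs against 18, 13 and 23 in sections 2 to 4. Scaled to the UMIs of each section, *Gbx2* was at 3.20, 0.486, 0.591 and 1.19 CPM. In sections 1 to 4, 5, 1, 2 and 4 spots held 3 or more *Tcf7l2* UMIs, and those spots held 1, 0, 0 and 1 *Gbx2* UMIs. Of the 173, 166, 126 and 102 spots with any *Tcf7l2*, 13, 2, 0 and 7 also held *Gbx2*. *Lef1* was at 3.02, 3.16, 3.32 and 2.54 CPM (3.01 ± 0.334), and its intervals overlapped between all sections.

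The make-up of the sections is given as shares of spots with exact (Clopper-Pearson) 95% intervals. These intervals treat the spots of 1 section as independent, which neighbouring spots are not, and they cover no spread between sections or animals. Deep spots pass the rule for groups more easily, so the shares also depend on depth. Section 3, the shallowest, left 41.1% of its spots in no group, against 31.5%, 26.9% and 28.2% in sections 1, 2 and 4. Cortical-marker spots made up 8.07% (6.75 to 9.54), 20.2% (18.6 to 21.9), 10.4% (9.16 to 11.7) and 20.8% (18.7 to 22.9) of sections 1 to 4, and striatal-marker spots 20.8%, 27.2%, 17.9% and 17.0%. Choroid plexus-marker spots made up 6.12% and 3.56% of sections 1 and 4 and 0.174% of section 3, and 0 of 2358 spots of section 2, which allows a share of up to 0.127% at 3 counts (0.156% by the exact interval). *Baiap3*-led spots made up 4.10%, 0.933%, 0.828% and 4.54%, and *Slc17a6* over whole sections was 15.8, 8.89, 10.1 and 20.3 CPM. Cortical-marker spots gave 30.6% of the *Slc17a6* UMIs of a section, as a mean, so its level is not one of subcortical tissue alone. Sections 1 and 4 were thus alike in choroid plexus, *Baiap3*-led spots and *Slc17a6*, but stood at opposite ends for *Emx1*, *Six3*, *Meis2* and *Isl1* over whole sections, and set to the mean make-up for *Emx1*, *Meis2* and *Isl1*. The order of the shares differed from that of the factors, since section 2 held the highest share of striatal-marker spots and section 1 the highest *Six3*, *Meis2* and *Isl1*. With 1 section each, the level of cut, the animal and the library cannot be told apart.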

How the data were processed

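Visium libraries of 4 *Nf1*+/- brain sections were counted with Space Ranger 1.3.1 (per the file headers) against mm10 (per the submitters' processing notes), and the authors deposited raw UMI counts for 32285 genes per spot, not normalized. Totals were 19261710 to 37002379 UMIs per section. Spots under 500 UMIs (17, 1, 26 and 4) were left out. Intervals cover counting error only.

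The 9 genes, the marker lists and the other gene lists were chosen with earlier results of these data known. A spot was a candidate for a list where at least 2 markers were detected, the observed minus expected UMIs over the square root of the expected was at least 3, and log2((observed + 1)/(expected + 1)) was at least 0.5. It took the list with the highest log2 value. Deposited counts were summed per section and group (at least 20 spots, in at least 2 sections), giving 34 sums, and fitted jointly with edgeR 4.0.16 in R 4.3.3 (TMM, genes kept by filterByExpr, a block for section, quasi-likelihood test, 20 residual degrees of freedom). Benjamini-Hochberg adjustment ran over 11386 genes, and shares of genes called leave out the markers that chose the spots. Standard errors are the log2 fold change over the square root of F. Groups of 1 section share its tissue and were therefore paired, and their deviations correlated at 0.264 to 0.438 across 13519 genes. Any pair of sections differed by more than counting noise (chi-square over its degrees of freedom 14.5 to 55.4). The block takes up shifts that all groups of a section share. The p-values therefore measure how differences between groups varied over these sections, pooled over all groups, and this spread may be technical. The 34 sums come from 4 sections and are not 34 independent samples, and the spread between animals is not measured. CPM are UMIs per 1000000 UMIs of the spots summed. Levels set to the mean make-up weight cortical-, striatal-, white matter-marker, other and ungrouped spots by their mean share of UMIs.

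On simulated counts with 200 genes changed by a log2 fold change of 1, the test called 198 of them, 8 unchanged genes and 0 in the wrong direction for striatal against cortical spots (10456 genes), and 174, 5 and 0 for the diencephalic against the telencephalic lists (10479 genes). The simulated sums were independent, had no section effect and shared 1 mean profile apart from the changed genes. The real sums differ in each of these, so the counts do not give error rates for these data. Some genes of the lists are not reported here. Named genes were the members, the listed genes and the 3 genes most correlated with each member. Alternatives were other group thresholds, sum sizes, depths, normalization, DESeq2 1.42.0, no filter, no block, a robust fit, fewer groups, and each section left out. Motifs were searched in RefSeq windows of GRCm38.p6, the assembly of mm10, and gene positions come from the same source.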

Additional observations from a re-analysis of the deposited data

Results flagged for a closer look

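Over 36 sets of 4 section values of the members, 0 held a section far from the other 3 by Dixon's ratio, where chance would give about 1.8.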

How the results depend on the processing

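Counts of members and genes called (edgeR, adjusted over all genes) are given for each setting that moved them by over 1.5 times, and the cause was not tested. With no filter on low counts *Lef1* was tested too, so those counts are out of 9 members and over more genes. Where a setting has a count of members alone, it is not set against a share of all genes called. For the diencephalic against the telencephalic lists (1 member and 740 genes), members called were 5 at a standardised excess of at least 5, 6 with sums of at least 50 spots, 3 with spots that were candidates for 1 list, 3 with 2 groups per section, 3 with the hypothalamic list alone, 2 with no filter on low counts and 0 with the robust fit. Genes called were 1890 at that excess, 2493 with sums of at least 50 spots, 2072 with candidates for 1 list, 1756 with 2 groups and 1733 with the hypothalamic list alone. Sums of at least 50 spots left the hypothalamic list, in sections 1 and 4, against the cortical and striatal lists. Leaving out each section gave 1 to 2 members and 597 to 1532 genes, with 1532 without section 2 and 1511 without section 3. The fits without section 2 or section 3 also lacked the groups of the habenular and hippocampal lists. For striatal against cortical spots (6 members and 5184 genes), thinning to 5000 UMIs left 2888 genes, and leaving out sections gave 5 to 6 members and 4303 to 4626 genes. For white matter-marker against cortical spots (6 and 4453), the values were 2589 genes, 5 to 6 members and 3439 to 3963 genes. For the hippocampal list (*Cabp7*-led spots) against cortical-marker spots (0 and 10), a log2 ratio of at least 1 gave 1 member and 26 genes, and no filter gave 2 and 142. Expected UMIs from the own section gave 6 genes, DESeq2 gave 37 and the robust fit gave 4. Leaving out section 1 or section 4 gave 0 to 1 members and 12 to 46 genes. Leaving out section 2 or section 3 removed the group, so dependence on the sections that hold it could not be measured. For the hypothalamic against the thalamic list (2 and 597), 0 members and 50 genes were called after thinning, 1 member with DESeq2, 1 with the robust fit, 4 with no filter, 243 genes with candidates for 1 list, 330 with the own section's expected UMIs, and 1 to 2 members and 177 to 495 genes with a section left out.

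Without the replicate block for section, genes called were 475, 4065, 2, 496 and 3576 in the diencephalic, striatal, hippocampal, hypothalamic and white matter comparisons. These comparisons are named by their marker lists, not by regions shown to be present. The hypothalamic comparison called 1 member and the striatal one 5.

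Signs of members turned in 27 of the fits. In the diencephalic comparison the log2 fold change of *Emx1* was 0.35, but -2.54 at the higher excess, -1.39 with sums of at least 50 spots, -1.99 with candidates for 1 list, -0.072 with the own section's expected UMIs, -2.70 after thinning, -0.21 with 2 groups, -1.21 with the hypothalamic list alone, and -0.34 to 0.36 with a section left out. *Emx2* was -1.04 at the higher excess and -0.28 with sums of at least 50 spots, *Six3* was -0.58 after thinning and -0.56 with 2 groups, and *Meis2* was 0.077 with the hypothalamic list alone. *Tcf7l2* in striatal against cortical spots was -0.020 in spots of at least 5000 UMIs and -0.14 without TMM. In the hypothalamic comparison *Emx1* was 1.72 and *Meis2* -0.059 with candidates for 1 list, and *Meis2* -0.89 after thinning. *Emx2* in white matter-marker against cortical spots was -0.16 at a log2 ratio of at least 1, -0.12 at the higher excess, -0.023 with the own section's expected UMIs, -0.31 in spots of at least 5000 UMIs, -0.068 without TMM, -0.047 with no filter, and -0.087 to 0.22 with a section left out. In the other fits of members the sign held, and 29 were newly called and 19 no longer called. The hypothalamic list as the only diencephalic group was chosen after seeing the data. Mean levels by section and the mean area for the diencephalic against the telencephalic lists moved by less than the spread between sections. The mean area of the 9-member score for striatal against cortical spots moved by more, from 0.824 in thinned to 0.917 in unthinned spots.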
